A study of Mus musculus with 8 samples.

Results

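Collagen and stellate cell genes were followed in mouse liver across a knockout and a feeding challenge. The set holds 10 genes given by name: the collagens Col1a1, Col1a2, Col3a1, Col14a1 and Col15a1, the matrix proteoglycan Dcn, and Reln, Des, Lrat and Pdgfrb. Each symbol matched 1 locus, so the set is 10 of 23235 symbols, or 10 of 23699 loci. The rule names genes and uses no measured value, but the list was drawn up with earlier results of these data known.

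Hepatic stellate cells lie between hepatocytes and the sinusoidal endothelium and store vitamin A as retinyl esters. When activated, as in liver injury, they become myofibroblast-like and deposit fibrillar collagen, which makes them the main source of scar matrix in many forms of fibrosis. Portal fibroblasts, vascular smooth muscle and mesothelial cells of the liver surface also make some of these transcripts, so several members are not exclusive to stellate cells.

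Polyadenylated RNA was sequenced from liver of 8-week-old male mice of the strain given as C57/BL6. Control mice and mice with a liver knockout of Med23, labelled LMKO, were sampled after a 24 h fast, or after a 24 h fast followed by 24 h of re-feeding; each of the 4 groups had 2 mice. Med23 is a subunit of Mediator, the complex that connects transcription factors to RNA polymerase II. The Cre driver and the alleles of the control mice are not named in the sources used here. All fasted libraries carried one number in their deposited names and all re-fed libraries another; if these mark batches, batch and feeding state cannot be told apart.

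Values are FPKM, fragments per kilobase of transcript relative to all mapped fragments, a unit meant to make levels comparable between genes and libraries. The values summed to 453652 to 597650 per library, and 10096 to 10403 loci per library reached 1 FPKM. Libraries also differed along transcript length, as given below, so levels compare only roughly between them. Fragment numbers per library were not given and could only be estimated roughly. Med23 read 2.86 and 2.93 FPKM in control mice after fasting, 2.35 and 2.18 in LMKO mice after fasting, 2.86 and 2.33 in control mice after re-feeding, and 1.61 and 1.74 in LMKO mice after re-feeding. Its level was thus lower in LMKO without overlap in each feeding state, although the difference did not pass (mean of both states, log2 fold change -0.34 ± 0.08 SE, limma adjusted p = 0.173). How complete the deletion was, and whether a transcript with only some exons deleted kept this signal, was not tested. Of the hepatocyte markers, summing to 31300 to 53500 FPKM, Alb was listed at 0 in all 8 libraries, which in these files can be a failed estimate.

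Promoter sequence was used for 6 of the 10 genes in a RefSeq table (GRCm38.p6), whose coordinates differ from the mm9 coordinates of the deposited loci. The 3 printed here belong to the genes on which the results turn: Col15a1, the one member with a called genotype difference, and Col3a1 and Reln, which moved in opposite directions on re-feeding. Each is the 250 bases before the annotated start, read 5′ to 3′ on the gene's strand, at chr4:47207762-47208011 (plus strand) for Col15a1, chr1:45311288-45311537 (plus strand) for Col3a1 and chr5:22344706-22344955 (minus strand) for Reln. Capitals mark matches on either strand to the TATA box, spelled TATAAA, to the sequence CCAAT bound by factors such as NF-Y, or to the GC box of Sp1, spelled GGGCGG, and none of the marked matches overlap.
Col15a1: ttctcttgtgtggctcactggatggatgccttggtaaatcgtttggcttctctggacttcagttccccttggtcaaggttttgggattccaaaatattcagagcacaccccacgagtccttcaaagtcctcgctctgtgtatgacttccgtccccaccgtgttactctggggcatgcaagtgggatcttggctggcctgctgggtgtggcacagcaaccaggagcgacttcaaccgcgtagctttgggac
Col3a1: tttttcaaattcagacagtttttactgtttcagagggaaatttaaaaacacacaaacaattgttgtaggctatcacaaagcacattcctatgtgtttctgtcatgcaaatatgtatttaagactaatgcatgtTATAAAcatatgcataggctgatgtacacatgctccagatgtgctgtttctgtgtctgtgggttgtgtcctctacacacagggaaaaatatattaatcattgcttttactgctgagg
Reln: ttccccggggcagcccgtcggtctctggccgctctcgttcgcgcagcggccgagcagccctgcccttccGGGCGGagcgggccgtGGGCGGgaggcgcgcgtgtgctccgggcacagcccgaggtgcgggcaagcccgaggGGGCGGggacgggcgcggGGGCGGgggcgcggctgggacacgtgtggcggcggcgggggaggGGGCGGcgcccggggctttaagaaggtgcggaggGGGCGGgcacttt
The Reln window had 6 GC boxes and 80.0% G plus C, a share higher than in 98.8% of promoters. By contrast, the Col3a1 window had 35.2% G plus C, only 5.0% of promoters having less, and held 1 TATAAA, whose first base is at position -117 from the start. The Col15a1 window held none of these motifs and had 53.6% G plus C, against a median of 52.4% over 32851 promoters. Of those promoters, 12.4% held TATAAA, 33.8% CCAAT and 32.7% GGGCGG in a window of the same length. Col1a2 had 1 CCAAT and 2 GC boxes, Lrat 1 of each, and Des 2 GC boxes. These matches describe letters only.

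Among the members, Dcn stood far above the rest in level, with a mean of 57.8 FPKM over the 8 libraries. Col14a1 (4.40), Reln (3.67), Col3a1 (2.81), Lrat (2.57), Des (2.14), Col1a2 (1.68), Pdgfrb (1.43), Col1a1 (0.847) and Col15a1 (0.771) followed. Several neighbours in this order had overlapping ranges, so that only the place of Dcn was clear in every library. All 10 members were tested, since each reached 1 FPKM in 2 or more libraries, as did 10865 loci in all. Col15a1 and Col1a1 passed through control libraries alone, since no LMKO library reached 1 FPKM for either. A difference seen for them is therefore favoured by the filter.

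**Figure D1:**
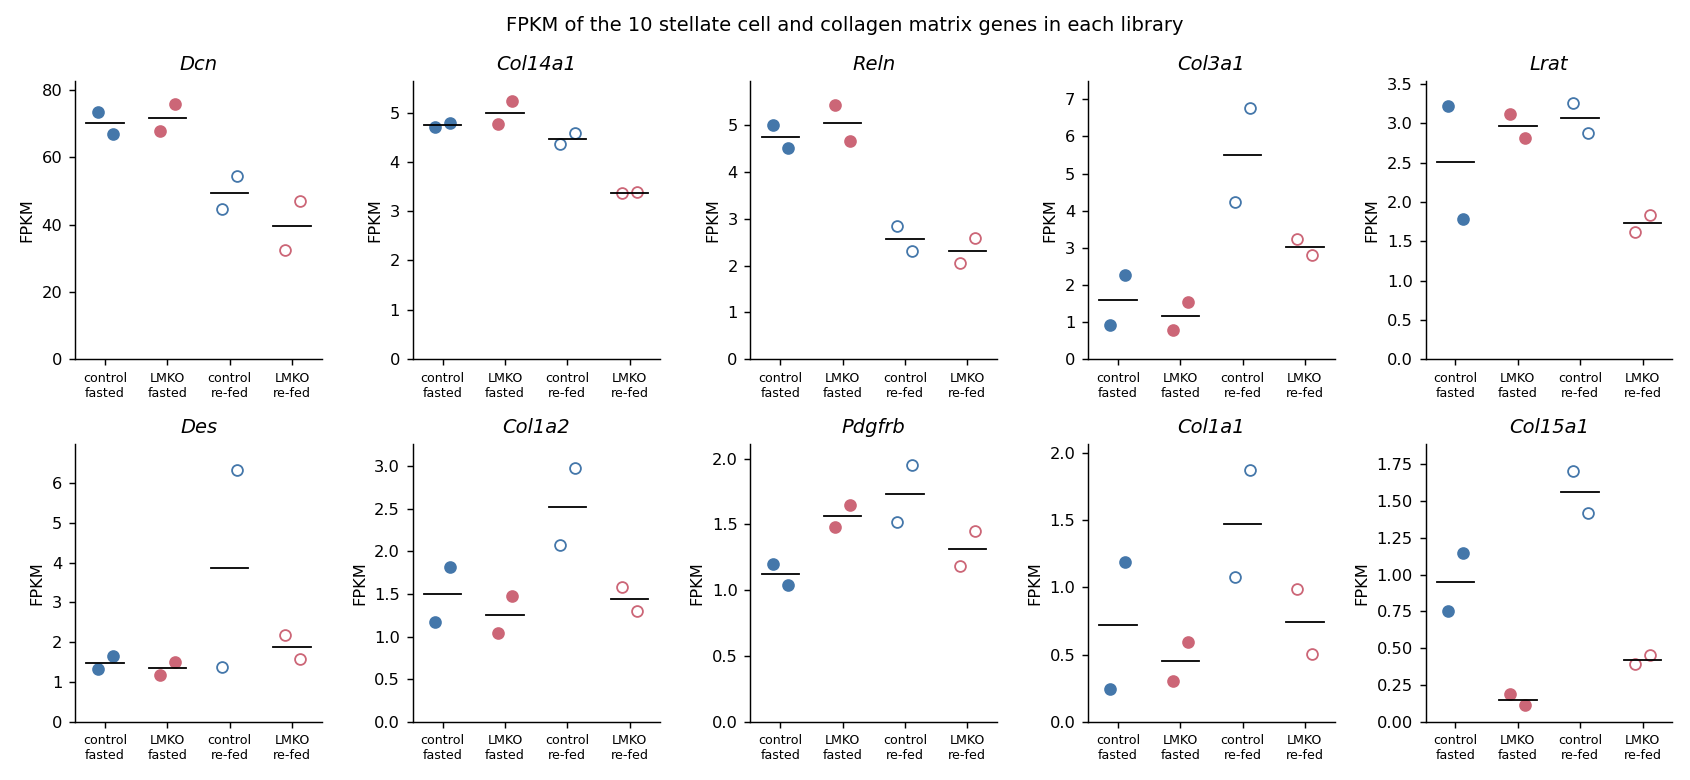
FPKM (vertical axis, linear, from 0) of each member in the 8 libraries; each point is 1 mouse, filled for fasted and open for re-fed, blue for control and red for LMKO, and black lines are group means of 2 mice. Col15a1 in LMKO, at 0.112 to 0.451 FPKM, lies below every control library, while Reln and Dcn are lower in all re-fed than in all fasted libraries.

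The first question was whether loss of Med23 in the liver changed these genes. Col15a1 was the only member called. It passed the filter of 1 FPKM through control libraries alone, which favours such a difference. It encodes type XV collagen, a multiplexin found at basement membranes (mm9 chromosome 4, 47220884 to 47326037). Its level was 0.752 and 1.15 FPKM in control mice after fasting, 0.187 and 0.112 in LMKO mice after fasting, 1.70 and 1.42 in control mice after re-feeding, and 0.395 and 0.451 in LMKO mice after re-feeding. All 4 LMKO libraries were below all 4 control libraries, in the fasted and in the re-fed state. The mean level in controls was 6.37 times that in LMKO after fasting (0.950 ± 0.280 against 0.149 ± 0.053 FPKM, SD, n = 2) and 3.69 times after re-feeding (1.56 ± 0.20 against 0.423 ± 0.040). On the log2(FPKM + 1) scale, which understates changes of low genes, the difference was -0.80 ± 0.10 (SE) over both feeding states, with a limma adjusted p of 0.0405. Of all loci tested, 0.313% were called in that comparison (0.221% as lower), and 3.38% had all LMKO below all control libraries.

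The Col15a1 call sat close to the threshold. It was kept without control fasted replicate 1 and lost without any one of the other 7 libraries, where the adjusted p ran from 0.0718 to 0.175 and the log2 fold change from -0.84 to -0.73. With no filter on low values the adjusted p was 0.0594, and with quantile normalization 0.0744. Within a single feeding state the difference was -0.76 ± 0.14 fasted (limma adjusted p = 0.142) and -0.85 ± 0.14 re-fed (0.189), neither passing. The interaction, which is the difference between these, was -0.09 ± 0.20 (adjusted p = 0.897).

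Loci around Col15a1 were read for comparison, in a window of 1 Mb on each side chosen after values were seen. Of 17 loci, 10 were tested and none was called; 3 had an unadjusted p under 0.05, of which 2 were higher in LMKO and 1 was lower. Gabbr2, a GABA-B receptor subunit gene, was at 1.20 and 1.24 FPKM in control mice after fasting, 3.19 and 3.01 in LMKO mice after fasting, 2.47 and 1.98 in control mice after re-feeding, and 3.02 and 2.97 in LMKO mice after re-feeding. It was the opposite of Col15a1 in that all LMKO libraries were above all controls (log2 fold change 0.60 ± 0.08, limma adjusted p = 0.0567). Tgfbr1, a TGF-beta receptor and the nearest tested neighbour at 145 kb, differed by -0.04 ± 0.10 (adjusted p = 0.874).

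**Figure D2:**
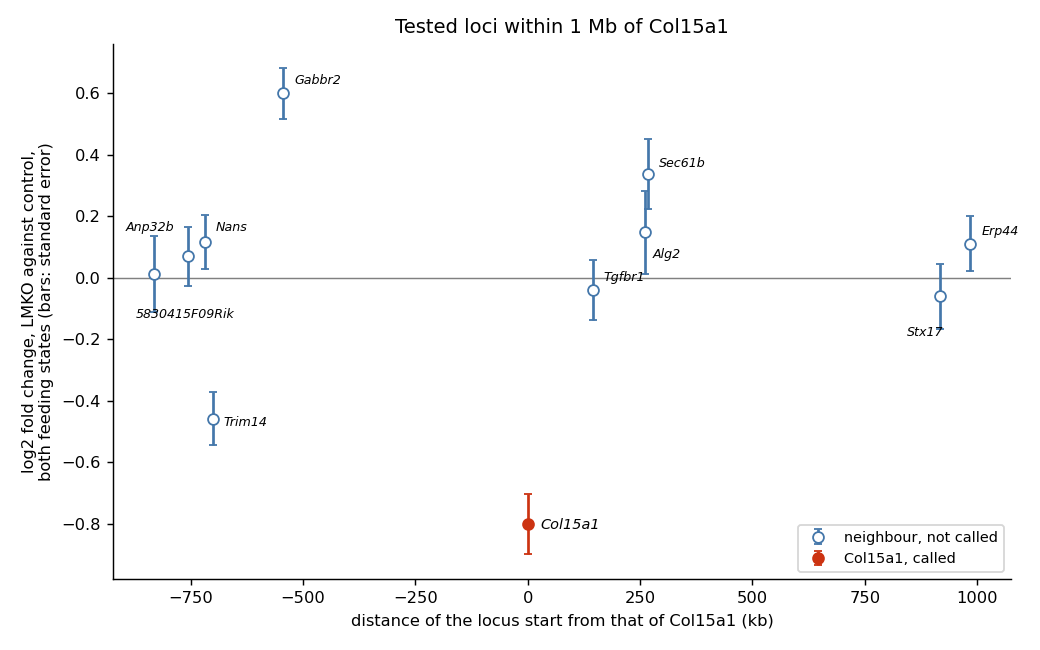
Log2 fold change of FPKM + 1, LMKO against control over both feeding states (vertical axis, bars are the standard error from limma), by distance in kb of each tested locus start from that of Col15a1. Col15a1 (filled, -0.80) is the only called locus; Trim14 at -0.46 and Gabbr2 at 0.60 are the next farthest from 0.

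The fibril-forming collagens did not pass in any genotype comparison. Col1a1 and Col1a2 encode the chains of type I collagen, the main fibril of scar matrix, and Col3a1 that of type III collagen, its partner in soft tissue. Col1a1 (mm9 chromosome 11, 94797584 to 94813170) read 0.244 and 1.19 FPKM in control mice after fasting, 0.303 and 0.597 in LMKO mice after fasting, 1.08 and 1.87 in control mice after re-feeding, and 0.990 and 0.501 in LMKO mice after re-feeding. Col1a2 (chromosome 6, 4455697 to 4491543) read 1.17 and 1.82, then 1.04 and 1.47, then 2.07 and 2.98, and then 1.58 and 1.30 FPKM in the same group order. Col3a1 (chromosome 1, 45368383 to 45406551) read 0.905 and 2.26, 0.795 and 1.54, 4.23 and 6.77, and 3.23 and 2.79 FPKM. After fasting the genotypes overlapped for all 3 genes, and after re-feeding both LMKO libraries lay below both controls for all 3.

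In re-fed mice the mean control level was 1.98 times the LMKO level for Col1a1, 1.76 times for Col1a2 and 1.83 times for Col3a1. The log2 fold changes were -0.50 ± 0.31, -0.52 ± 0.20 and -0.67 ± 0.31 (limma adjusted p = 0.561, 0.396 and 0.460). In fasted mice they were -0.20 ± 0.31, -0.14 ± 0.20 and -0.22 ± 0.31, and without control fasted replicate 2 they were 0.21, 0.05 and 0.16. That library also held the highest levels of mesothelial markers. Msln, mesothelin, was at 2.25 FPKM there against 0.127 to 0.514 elsewhere. The 4 mesothelial markers other than the keratins Krt8 and Krt18, which hepatocytes also make, summed to 4.02 FPKM against 0.364 to 1.39; none was listed at 0 in every library. With the keratins, all 6 mesothelial markers summed to 126 and 168 FPKM in control mice after fasting, 173 and 170 in LMKO mice after fasting, 267 and 297 in control mice after re-feeding, and 498 and 718 in LMKO mice after re-feeding. The part of mesothelial cells in the collagen values was not tested.

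Col14a1, a fibril-associated collagen, and Dcn, the small proteoglycan decorin that binds collagen fibrils, were nearly level between genotypes in fasted mice. Col14a1 (chromosome 15, 55139305 to 55352358) read 4.70 and 4.80 FPKM in control mice after fasting, 4.77 and 5.23 in LMKO mice after fasting, 4.36 and 4.58 in control mice after re-feeding, and 3.37 and 3.39 in LMKO mice after re-feeding. Both re-fed LMKO libraries were below all others, and the re-fed control mean was 1.32 times the LMKO mean (log2 fold change -0.32 ± 0.10, limma adjusted p = 0.345). Dcn (chromosome 10, 96942134 to 96980796) read 73.4 and 66.9, 67.9 and 75.9, 44.6 and 54.4, and 32.4 and 47.0 FPKM in the same order. Its genotypes overlapped in both states (re-fed -0.33 ± 0.20, adjusted p = 0.552).

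Reln encodes reelin, a secreted glycoprotein that in liver marks stellate cells. Its levels (chromosome 5, 21390272 to 21850523) were 5.01 and 4.50 FPKM in control mice after fasting, 5.44 and 4.66 in LMKO mice after fasting, 2.84 and 2.31 in control mice after re-feeding, and 2.05 and 2.59 in LMKO mice after re-feeding. Genotypes overlapped in each state, with log2 fold changes of 0.07 ± 0.14 fasted and -0.11 ± 0.14 re-fed.

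Lrat, the enzyme that esterifies retinol for storage, read 3.23 and 1.78 FPKM in control mice after fasting, 3.13 and 2.82 in LMKO mice after fasting, 3.26 and 2.88 in control mice after re-feeding, and 1.62 and 1.84 in LMKO mice after re-feeding (chromosome 3, 82696504 to 82707896). Re-fed LMKO was low and did not overlap re-fed control, whose mean was 1.77 times as high (-0.57 ± 0.20, limma adjusted p = 0.372). Fasted control replicate 2 was as low as the re-fed LMKO mice.

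Pdgfrb, the receptor through which PDGF drives stellate cell growth and migration, changed sides between the feeding states. Its level was 1.20 and 1.04 FPKM in control mice after fasting and 1.48 and 1.65 in LMKO mice after fasting, but 1.52 and 1.95 in control mice after re-feeding and 1.18 and 1.45 in LMKO mice after re-feeding. LMKO was above control when fasted and below it when re-fed, with no overlap in either state. The log2 fold changes were 0.27 ± 0.13 (limma adjusted p = 0.462) and -0.24 ± 0.13 (0.525), and their difference was -0.51 ± 0.19 (0.507).

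Des, the muscle-type filament desmin, is kept by quiescent stellate cells of rodents and by smooth muscle. It read 1.32 and 1.65 FPKM in control mice after fasting, 1.18 and 1.51 in LMKO mice after fasting, 1.39 and 6.34 in control mice after re-feeding, and 2.17 and 1.58 in LMKO mice after re-feeding (chromosome 1, 75356919 to 75364290). One re-fed control, replicate 2, stood apart and the genotypes overlapped. Without it the re-fed difference turned from -0.55 ± 0.47 to 0.26. In that library the 6 vascular smooth muscle markers summed to 39.2 FPKM against 3.90 to 12.5 in the other 7, and none was listed at 0 in every library. Acta2, smooth muscle actin, was at 15.1 FPKM there against 0.398 to 3.42, and Myh11, smooth muscle myosin, at 3.69 against 0.141 to 1.07. The 6 portal fibroblast markers summed to 5.67 FPKM there and to 2.47 to 3.47 elsewhere. The part of these cells in the Des or collagen values was not tested.

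**Figure D3:**
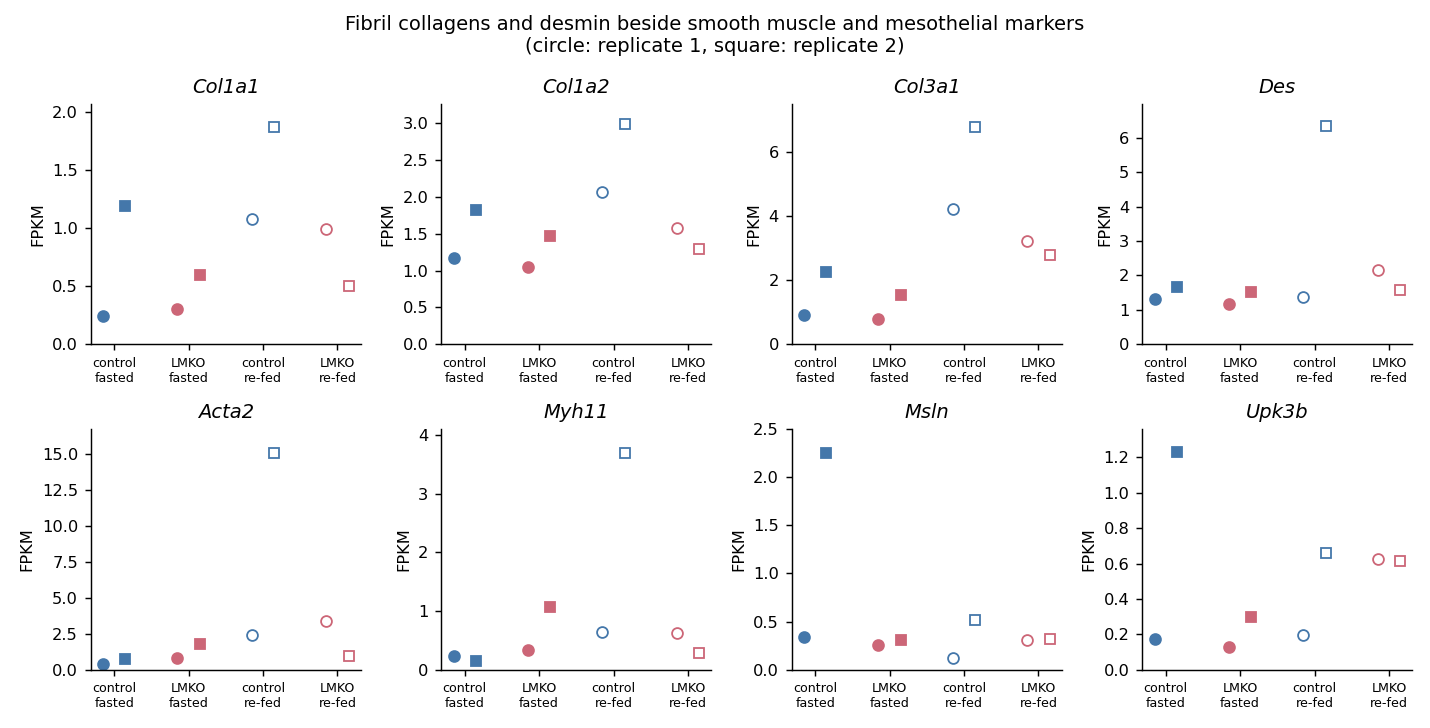
FPKM (vertical axis, linear, from 0) of the fibril collagens and Des in the upper row and of smooth muscle (Acta2, Myh11) and mesothelial (Msln, Upk3b) markers in the lower row; circles are replicate 1 and squares replicate 2 of each group, blue control and red LMKO, filled fasted and open re-fed. Re-fed control replicate 2 is highest for Des (6.34 FPKM), Acta2 (15.1) and all 3 collagens, and fasted control replicate 2 is highest for Msln (2.25).

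Counted over the set, the fasted genotype comparison called none of the 10 members, against 0.166% of all loci. Col15a1 alone had an unadjusted p under 0.05, as did 12.4% of loci. Only Pdgfrb was higher (33.0% of loci) and only Col15a1 lower (12.8% of loci) without overlap. In the re-fed comparison none was called either (0.101% of loci), but all 10 fold changes were negative, against 48.5% of loci. There 4 members, Col14a1, Col15a1, Col1a2 and Lrat, had an unadjusted p under 0.05 (11.7% of loci), and 7 were lower in LMKO without overlap (19.4% of loci). The shared re-fed sign did not hold in every fit. Reln was at 0.08 with a trend along transcript length removed, and Des at 0.26 without control re-fed replicate 2. The median log2 fold change of the members was -0.03 fasted and -0.51 re-fed, beside 0.08 and 0.01 for all loci tested. Over both states 2 members, Col15a1 and Col1a2, had an unadjusted p under 0.05, as did 15.1% of loci. The members shared the same 8 libraries, so their directions are not independent. In bulk liver, fewer cells of a type and less RNA per cell cannot be told apart.

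The drop from re-fed control to re-fed LMKO stood beside other cell type markers. The 10 Kupffer cell and macrophage markers found summed to 109 and 147 FPKM in control mice after re-feeding and 66.8 and 101 in LMKO mice after re-feeding, and to 132 and 156 against 139 and 182 FPKM when fasted. The 10 sinusoidal endothelial markers summed to 71.2 and 81.0 against 78.3 and 56.8 FPKM re-fed, and to 106 and 104 against 143 and 134 FPKM fasted. The hepatocyte markers summed to 31300 and 41700 FPKM in control mice after re-feeding and to 53500 and 44300 in LMKO mice after re-feeding. The 6 vascular smooth muscle markers summed to 9.2 and 39.2 FPKM in re-fed controls and to 12.5 and 5.84 in re-fed LMKO. These sums overlapped, and only control replicate 2 was high. Gene by gene, 10 of 10 Kupffer cell, 9 of 10 endothelial and 4 of 4 tested smooth muscle markers had a lower mean in re-fed LMKO (median log2 fold changes -0.55, -0.37 and -0.75), and none was called, as for the 10 of 10 members; 4, 5 and 0 of them had an unadjusted p under 0.05. No gene of the Kupffer or endothelial list was at 0 in every library, and the part of cell makeup was not tested.

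**Figure D4:**
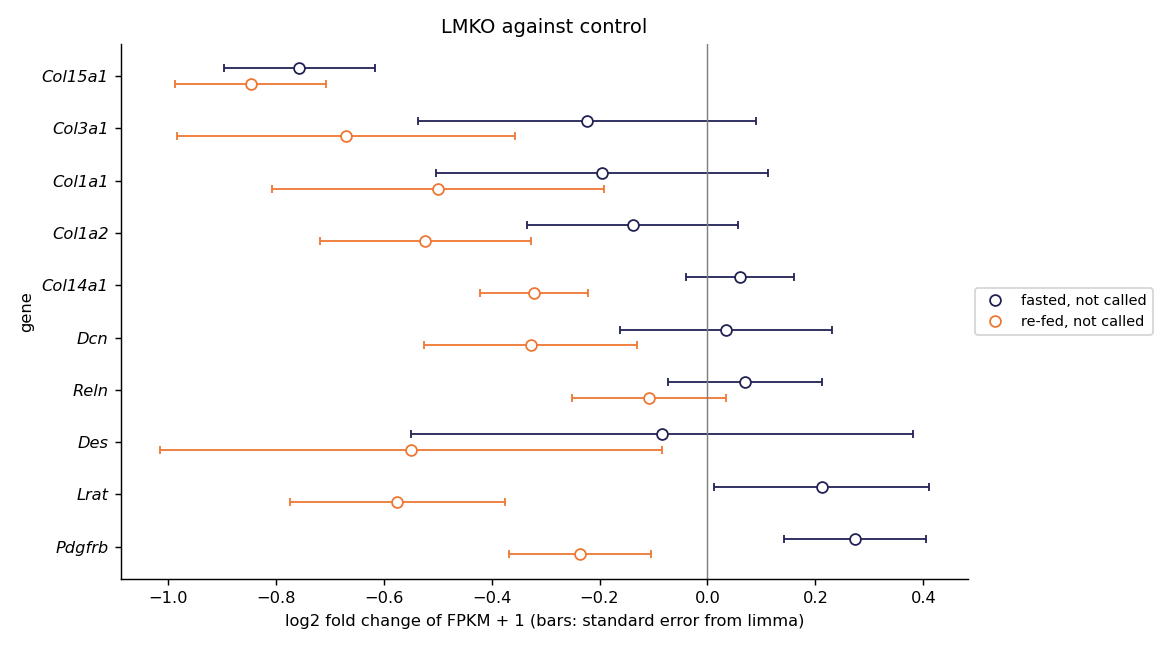
Log2 fold change of FPKM + 1, LMKO against control, for each member (horizontal axis, bars are the standard error from limma), fasted in dark blue and re-fed in orange. No point is called in either state; all 10 re-fed values are below 0, from -0.85 for Col15a1 to -0.11 for Reln.

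The second question was how re-feeding changed these genes. Over both genotypes, Col3a1 and Col15a1 rose and Reln, Dcn and Col14a1 fell, 5 of 10 members, where 53.1% of all loci were called. Of the members 2 rose (32.4% of loci) and 3 fell (20.6% of loci). The counts are near those shares, so they set nothing apart about the set; the values of each gene follow.

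On the log2(FPKM + 1) scale, Col3a1 had the largest change of the members. All 4 re-fed libraries, at 2.79 to 6.77 FPKM, were above all 4 fasted libraries, at 0.795 to 2.26. The mean rose 3.48 times in controls (log2 fold change 1.36 ± 0.31, limma adjusted p = 0.0193), while in LMKO, where the mean was 2.58 times as high, the change did not pass (0.91 ± 0.31, adjusted p = 0.0577). Over both genotypes it was 1.13 ± 0.22 (adjusted p = 0.00553), and it stayed called whichever 1 library was left out. The control call was lost without fasted replicate 1 (adjusted p = 0.0657) or re-fed replicate 2 (0.0968). In LMKO the change passed in 6 of 19 alternatives. Among them were removal of the length trend (adjusted p = 0.0485) and the use of only the 4 libraries of the comparison (0.0233). The interaction was -0.45 ± 0.44 (adjusted p = 0.749).

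The type I collagen genes had the same sign and did not pass. Col1a2 changed by 0.50 ± 0.20 in controls (limma adjusted p = 0.0919) and 0.11 ± 0.20 in LMKO, and Col1a1 by 0.56 ± 0.31 (adjusted p = 0.199) and 0.26 ± 0.31. Both re-fed controls were above both fasted controls for Col1a2, whereas Col1a1 overlapped in both genotypes. Col15a1 changed by 0.40 ± 0.14 in controls (adjusted p = 0.0683) and 0.31 ± 0.14 in LMKO (adjusted p = 0.123). In plain FPKM its mean was 1.64 times as high in controls and 2.83 times in LMKO, where levels were lowest. The LMKO change passed in 2 of 17 alternatives. These were a pseudocount of 0.1 (1.08, adjusted p = 0.0418) and removal of the length trend (0.50, 0.0318). Over both genotypes Col15a1 rose by 0.35 ± 0.10 (adjusted p = 0.0221). That call was lost without control fasted replicate 1, control re-fed replicate 1, LMKO fasted replicate 2 or either LMKO re-fed library (adjusted p = 0.0518 to 0.0671).

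Reln fell in both genotypes. The fasted mean was 1.85 times the re-fed mean in controls (-0.69 ± 0.14, limma adjusted p = 0.0139) and 2.18 times in LMKO (-0.87 ± 0.14, adjusted p = 0.00536), and all 4 re-fed libraries were below all 4 fasted ones. The call over both genotypes (-0.78 ± 0.10, adjusted p = 0.00121) stayed called whichever 1 library was left out; that in controls was lost without fasted replicate 1 (0.0548) or re-fed replicate 2 (0.0659). Reln has the longest transcript of the set, 11699 bases, and the libraries differed along transcript length: across genes, deviations correlated with log2 length at 0.222 to 0.293 in fasted libraries and at -0.357 to -0.018 in re-fed ones. Among the re-fed libraries, control replicate 1 was at -0.018, control replicate 2 at -0.327 and LMKO at -0.357 and -0.325. The re-fed genotype comparison can therefore carry this trend too. With that trend removed the fall in Reln was -0.35 in controls (adjusted p = 0.0727) and -0.28 in LMKO (0.113), neither called, and over both genotypes -0.32, still called (0.022).

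Dcn fell in LMKO, where the fasted mean was 1.81 times the re-fed one (-0.86 ± 0.20, limma adjusted p = 0.0153). In controls that ratio was 1.42 (-0.50 ± 0.20, adjusted p = 0.0938). Re-fed libraries were below fasted ones in both genotypes, and the call over both (-0.68 ± 0.14, adjusted p = 0.00657) stayed called whichever 1 library was left out. The LMKO call was lost without LMKO fasted replicate 2 (0.0778) or LMKO re-fed replicate 1 (0.071). Col14a1 fell in LMKO, by 1.48 times (-0.45 ± 0.10, adjusted p = 0.0137), and in controls it changed by -0.07 ± 0.10 (adjusted p = 0.609). The difference between these responses was -0.38 ± 0.14 (adjusted p = 0.507), so that the genotypes were not shown to differ. The LMKO call was lost without LMKO fasted replicate 2 (0.0778) or either LMKO re-fed library (0.0702 and 0.069), and with the length trend removed the LMKO value was -0.13 (0.418). Over both genotypes Col14a1 fell by 0.26 on the log2 scale (adjusted p = 0.0194), which became -0.03 (0.791) with that trend removed. This call too was lost without control fasted replicate 2, LMKO fasted replicate 2 or either LMKO re-fed library (0.0548 to 0.0654).

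Lrat, Pdgfrb and Des did not pass on re-feeding. Lrat changed by 0.25 ± 0.20 in controls and -0.54 ± 0.20 in LMKO (limma adjusted p = 0.375 and 0.0702), and Pdgfrb by 0.36 ± 0.13 and -0.15 ± 0.13 (0.0752 and 0.398). Without control fasted replicate 1, Lrat passed as higher in controls at 0.55 (adjusted p = 0.0447) and as lower in LMKO at -0.54 (0.0184), where it passed in 5 of 19 alternatives. Without control re-fed replicate 1, Des passed in controls at 1.56 (adjusted p = 0.0112). Des changed by 0.75 ± 0.47 in controls, and by -0.06 without control re-fed replicate 2.

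**Figure D5:**
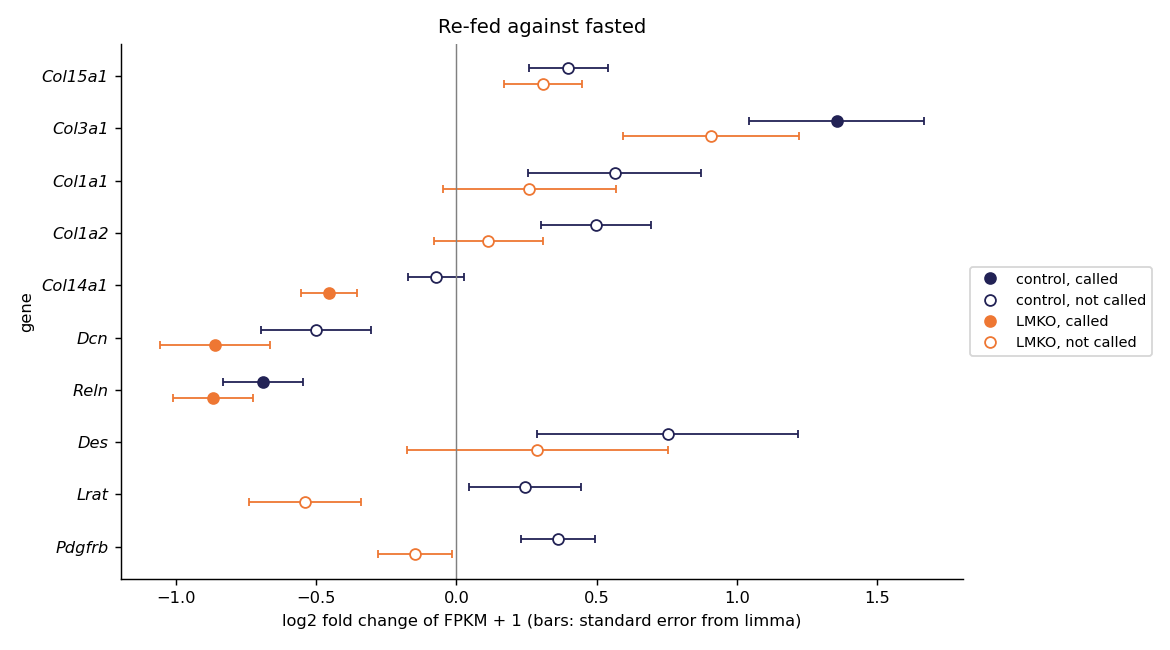
Log2 fold change of FPKM + 1, re-fed against fasted, for each member (horizontal axis, bars are the standard error from limma) in control (dark blue) and LMKO (orange) liver; filled points are called at an adjusted p under 0.05. Col3a1 lies highest, at 1.36 in controls and 0.91 in LMKO, and Reln and Dcn lie below 0 in both genotypes.

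By genotype, re-feeding called 2 of 10 members in controls, Col3a1 higher and Reln lower, where 33.2% of loci were called (22.8% higher and 10.5% lower). In LMKO it called 3, Reln, Dcn and Col14a1, all lower, where 39.5% of loci were called (23.2% higher and 16.3% lower). Of the called loci 68.5% were higher in controls, but 51.1% with median-ratio scaling, 49.7% with quantile normalization and 52.1% with the length trend removed; over both genotypes the share was 61.1%, and 50.4%, 50.3% and 51.2% with these settings. No called member turned its sign with them. Without overlap, 4 members were higher and 3 lower in controls (43.9% and 25.0% of loci), and 3 were higher and 5 lower in LMKO (41.5% and 33.8% of loci). In total, the called shares of the set were below those of all loci in both genotypes. By direction, the 3 of 10 called lower in LMKO lay above the 16.3% of loci, and 0 were called higher. With 10 members that share the same libraries, the counts are no result about these genes. Without control re-fed replicate 2 the count in controls was 0; in LMKO it was 1 without LMKO fasted replicate 2 or LMKO re-fed replicate 1, and 5 when 1 or the other fasted control was left out.

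The interaction asks whether re-feeding acted differently in LMKO. All 10 members had a negative interaction, against 58.1% of loci, with a median log2 value of -0.38 beside -0.06 for all loci. All 10 sinusoidal endothelial and all 10 Kupffer cell markers were negative too (medians -0.63 and -0.64), 4 and 3 of them with an unadjusted p under 0.05, as were the 4 smooth muscle markers tested (-1.10). Smooth muscle markers were high in 1 re-fed control library, replicate 2, with a sum of 39.2 FPKM against 9.2 in replicate 1. None of the 10 members was called (0.0368% of loci), and 3 of them had an unadjusted p under 0.05 (9.35% of loci). These were Lrat (-0.79 ± 0.28), Pdgfrb (-0.51 ± 0.19) and Col14a1 (-0.38 ± 0.14), each with a limma adjusted p of 0.507. The shared sign did not hold in every alternative fit. There the interaction reached 0.40 for Col15a1, 0.35 for Des, 0.105 for Col1a1 and 0.0645 for Reln.

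Genes that work with the members were read from lists of their pathways. Among 12 tested genes of collagen folding, cross-linking and processing, re-feeding raised 7 and lowered 1 over both genotypes (median log2 fold change 0.49, all loci 0.10). For this and the lists that follow, 32.4% of all loci rose and 20.6% fell in that comparison, and several lists lie near or below these shares. Ppib, P4hb, Serpinh1, Pcolce, P4ha1, P4ha2 and Lepre1 rose and Bmp1 fell. Serpinh1, the collagen chaperone HSP47, went from 1.41 and 1.85 FPKM in control mice after fasting and 1.11 and 1.58 in LMKO mice after fasting to 3.70 and 4.87 in control mice after re-feeding and 4.59 and 3.25 in LMKO mice after re-feeding. Every re-fed library was above every fasted one (1.03, limma adjusted p = 0.00141). Ppib (1.71) and P4hb (1.18) serve the folding of many secreted proteins, and hepatocytes express them highly, so they do not read out collagen alone. Bmp1, a procollagen C-proteinase, fell (-0.68), and Pcolce, its enhancer, rose (0.64).

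Other proteoglycans and matrix glycoproteins went mostly the other way. Of 14 tested, 1 rose and 7 fell over both genotypes (median -0.37). Fn1 (fibronectin, -0.86), Bgn (biglycan, -0.56), Prelp (-0.71), Hspg2 (perlecan, -0.56), Nid1 (-0.49), Lama4 (-0.51) and Ecm1 (-0.52) fell, and Sparc rose (0.57, limma adjusted p = 0.0344). Lamb1 (-0.46) and Lamc1 (-0.54) fell in LMKO. Lama4 could be tested in only 6 of 8 fits that each left out 1 library. It thus reached 1 FPKM in only 2 libraries, and the filter can favour a difference seen for it. With the length trend removed Hspg2 was at -0.04 (adjusted p = 0.827) and, in LMKO, Lamb1 at -0.20 (0.177) and Lamc1 at -0.14 (0.497); Lamc1 was called in 4 of 8 fits that each left out 1 library. Sparc did not pass with the length trend removed or with either other scaling (adjusted p = 0.0992 to 0.228). Much liver Fn1 comes from hepatocytes: it was 232 and 250 FPKM in control mice after fasting, 235 and 247 in LMKO mice after fasting, 176 and 142 in control mice after re-feeding, and 112 and 110 in LMKO mice after re-feeding. Of 9 other collagens tested, Col27a1 rose (1.43) and Col13a1 fell (-0.67), and Col5a3 rose in LMKO (1.48). Of 6 matrix proteases and inhibitors, Mmp19 rose (1.53) and Timp3 (-0.81), Timp2 (-0.57) and Adamts1 (-0.31) fell.

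Among 18 other markers of resting stellate cells tested, 7 fell on re-feeding over both genotypes (median -0.12). Hgf (hepatocyte growth factor, -1.18), Rgs5 (-1.65), Vipr1 (-0.83), Hand2 (-0.65), Adamtsl2 (-0.76), Colec10 (-0.52) and Bmp5 (-0.44) fell. Cygb fell in LMKO (-0.49, limma adjusted p = 0.0485), a call kept in only 1 of 8 fits that each left out 1 library. Hgf read 4.11 and 3.90 FPKM in control mice after fasting, 4.41 and 3.60 in LMKO mice after fasting, 1.85 and 1.13 in control mice after re-feeding, and 0.896 and 1.05 in LMKO mice after re-feeding. All re-fed libraries were thus below all fasted ones, the direction of Reln.

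Of 9 tested markers of activated stellate cells and myofibroblasts, 4 rose over both genotypes: Lgals1 (2.51), Spp1 (1.54), Myl9 (1.45) and Tagln (1.0). Spp1, osteopontin, is also made by cholangiocytes, and Myl9 and Tagln by the smooth muscle whose markers were high in re-fed control replicate 2. Myl9 was 12.4 FPKM there and 0.536 to 5.45 elsewhere, and with the length trend removed neither Myl9 nor Tagln passed (adjusted p = 0.125 and 0.158). Each was called in 2 of 8 fits that left out 1 library. None of the 9 fell, but with median-ratio scaling 3 rose and 1, Ctgf, fell, and with the length trend removed 2 rose and Ctgf fell. The 7 cholangiocyte markers, Spp1 among them, summed to 8.53 to 12.4 FPKM in fasted and 24.7 to 30.8 in re-fed libraries; their part was not tested. Of 11 TGF-beta and PDGF signalling genes, 6 fell and none rose (median -0.47): Pdgfra (-0.92), Eng (-0.87), Tgfbr3 (-0.77), Skil (-0.68), Tgfbr1 (-0.64) and Smad2 (-0.29, but 0.04 with the length trend removed). Eng, an accessory TGF-beta receptor, is abundant in endothelium, and the sinusoidal endothelial markers summed to 104 to 143 FPKM in fasted and 56.8 to 81.0 in re-fed libraries, also not tested as a part of these falls.

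The loci most like the set across the 8 libraries, by Pearson correlation with the members' mean standardised log2 level, were Hcls1 (r = 0.929), Mpeg1 (0.928), Raet1d (0.901), Anxa3 (0.897), Gls2 (0.879) and Pld4 (0.876). The points share the same libraries and the 6 were picked as the highest of all loci, so this is a description. The members' mean was highest in re-fed control replicate 2 (1.01 SD units) and lowest in the re-fed LMKO libraries (-0.66 and -0.55). Mpeg1, a macrophage gene, likewise ranged from 3.58 and 4.55 FPKM in LMKO mice after re-feeding to 14.8 in re-fed control replicate 2.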

How the data were processed

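The authors sequenced polyadenylated liver RNA (TruSeq libraries) from 4 groups of 2 mice. Per the submitters' processing notes, TopHat 1.4.1, SAMtools 1.4.1, Cufflinks 2.0.2, Cuffdiff 2.0.2 and build mm9 were used; the deposited values are FPKM per locus, and the sources used here name no scaling beyond that unit. Loci were joined by position and symbol, and printed starts are 1 above the deposited ones. FPKM values were used unscaled as log2(FPKM + 1), for 10865 loci with at least 1 FPKM in at least 2 libraries. limma 3.58.1 (R 4.3.3) fitted the 4 group means, with eBayes and a mean-variance trend (4 residual and 2.74 prior degrees of freedom). Two-sided p-values were adjusted (Benjamini-Hochberg) over all loci within each of 7 comparisons; a call is an adjusted p under 0.05. The procedure was tested on simulated data. The SE is limma's moderated standard error. Other pseudocounts, filters, scalings and library sets were tried.

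The members and lists were chosen with earlier results of these data known. Named from each pathway list were the genes called in a comparison, and the 6 most alike loci by correlation (at least 200 bases long). Some results that this rule takes are not reported here. Marker lists for lymphocytes and erythroid cells summed to 0.937 to 3.82 and 46.1 to 161 FPKM. Pdgfrb coordinates are not reported here.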

Additional observations from a re-analysis of the deposited data

Results flagged for a closer look

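Pdgfrb, the PDGF receptor beta gene, stood out because its genotype difference pointed in opposite ways in the 2 feeding states with no overlap of libraries. Fasted LMKO mice (1.48 and 1.65 FPKM) were above fasted controls (1.20 and 1.04), and re-fed LMKO mice (1.18 and 1.45) were below re-fed controls (1.52 and 1.95). Seen the other way, re-feeding went with a higher level in controls (log2 fold change 0.36) and a lower one in LMKO (-0.15), again without overlap. With the length trend removed the LMKO value turned to 0.075. Both views have the same difference, -0.5103 on the log2 scale, and that difference did not pass when tested (limma interaction, unadjusted p = 0.0299, adjusted p = 0.507). Without each library in turn it ran from -0.62 to -0.40.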

How the results depend on the processing

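Each two-group comparison was refitted under 19 alternatives and 1 more, chosen after seeing the data, which left out control fasted replicate 2 and control re-fed replicate 2. Without each library in turn, the members called numbered 0 to 0 in both single-state genotype comparisons and in the interaction, 0 to 1 for genotype over both states, 0 to 3 for re-feeding in controls, 1 to 5 in LMKO and 3 to 6 over both genotypes; all called loci numbered 11 to 56 (genotype, fasted), 3 to 14 (re-fed), 15 to 55 (both states), 1562 to 3166 (re-feeding, controls), 2202 to 4257 (LMKO), 4734 to 5401 (both genotypes) and 1 to 15 (interaction). Over all alternatives the called loci numbered 3 to 19 for genotype in re-fed mice (11 as reported) and 443 to 3614 for re-feeding in controls (3610 as reported), 443 being the fit without both libraries. That fit called 0 members for genotype over both states, 0 for re-feeding in controls, 5 in LMKO and 3 over both genotypes. Genotype over both states called 0 members with no filter, with an FPKM of at least 5 (which leaves Col15a1 out), with quantile normalization and with the replicate block. For re-feeding, an FPKM of at least 5 gave 1 in controls and 2 over both genotypes, where only Dcn and Reln were tested; removing the length trend gave 1 in controls, and only the 4 libraries of the comparison gave 5 in LMKO. The sample titles number the replicates and do not say whether the mice were paired. Replicate differences correlated at -0.084 to -0.008 between groups, which cannot settle it with 1 difference a group. The replicate block called 4 members for re-feeding in LMKO. Directions turned for values near 0. For genotype in fasted mice, median-ratio scaling gave -0.020 for Col14a1, -0.061 for Dcn and -0.011 for Reln, quantile normalization -0.0097 for Col14a1 and -0.035 for Dcn, and removing the length trend -0.0022 and -0.032. Removing that trend also gave 0.082 for Reln (genotype, re-fed), 0.072 for Col14a1 (re-feeding, controls), 0.075 for Pdgfrb (re-feeding, LMKO) and 0.052 for Col15a1 (interaction), and a pseudocount of 0.1 gave 0.40 for the last. Leaving out 1 library also turned the sign of some values. For genotype in fasted mice they ran from -0.60 to 0.21 for Col1a1, -0.33 to 0.050 for Col1a2, -0.61 to 0.16 for Col3a1, -0.19 to 0.018 for Des, -0.045 to 0.11 for Dcn, -0.024 to 0.16 for Reln and -0.092 to 0.51 for Lrat. In re-fed mice they ran from -1.36 to 0.26 for Des and -0.23 to 0.010 for Reln. For re-feeding they ran from -0.056 to 1.56 for Des and -0.058 to 0.55 for Lrat in controls, and from -0.023 to 0.25 for Col1a2 in LMKO. The interaction ran from -0.24 to 0.057 for Col15a1, -1.27 to 0.35 for Des and -0.71 to 0.105 for Col1a1. Median-ratio scaling moved the median of all loci for re-feeding in controls from 0.125 to -0.001, where Dcn then passed (-0.65, limma adjusted p = 0.0432). Depth in fragments was not given. A rough estimate took the commonest low value of FPKM times transcript length as 1 fragment. By it Col15a1 had about 19 to 75 fragments in LMKO libraries and 110 to 270 in control libraries. With 2 mice a group, changes in members near 1 FPKM may have gone undetected.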
